A study of Homo sapiens with 6 samples.

Results

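The laminin- and collagen-binding integrins are the cell-surface receptors that attach cells to basement membrane and to fibrillar collagen. The 9 genes described here were chosen by symbol, with earlier results of these data known. The collagen-binding alpha subunits are ITGA1, ITGA2, ITGA10 and ITGA11. The laminin-binding alpha subunits are ITGA3, ITGA6 and ITGA7, and the beta subunits are ITGB1 and ITGB4. Together the 9 genes stand for the family here. The members carry 26 of the 41091 probe sets with 1 gene symbol on the array and are 9 of 19775 named genes. All of these probe sets were kept, whatever their signal. Transcript levels were measured in CL1-5, labelled highly invasive, and in CL1-0, labelled poorly invasive. Both are lung adenocarcinoma sublines of the parental human line CL1, grown in the same serum-containing medium, with no treatment named that differs between them. Each line has 3 arrays, called biological repeats in the labels, so each line stands for 1 cell population. The p-values set the difference between the lines against the spread between repeats within the lines.

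An integrin is a pair of 1 alpha and 1 beta subunit, and the alpha subunit largely sets which ligand is bound. ITGB1 is the common partner of all 7 alpha subunits here, whereas ITGB4 pairs with ITGA6 alone and links laminin to keratin filaments in hemidesmosomes. In epithelium, including that of the lung, laminin receptors hold cells on the basement membrane, and collagen receptors meet the interstitial matrix.

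Arrays had median signals between 30.2 and 30.9 signal units. The 40th percentile of each array, between 19.5 and 20.3 units, stands in for background, since no detection call was used. Precision is limited by there being 3 arrays a line. Of 10 markers of lung adenocarcinoma and epithelium, 8 were above that percentile on all arrays, and KRT19 was above it on none. The lung lineage factor NKX2-1 lay close to it, at 25.0 ± 0.502 units in CL1-5 and 26.9 ± 3.30 units in CL1-0 (SD, n = 3 each). Summed marker signal was 4713 to 5558 units in CL1-5 and 455 to 495 units in CL1-0, and the difference came mostly from KRT18, with 4222 ± 417 units in CL1-5 and 46.5 ± 7.85 units in CL1-0, and KRT8. EPCAM ran the other way and was at or under the percentile in CL1-5. KRT18 and KRT8 were each read on a probe set with the suffix x, which can cross-hybridise. For the 5 fibroblast markers the sums were 81.9 to 84.4 units in CL1-5 and 85.8 to 101.9 units in CL1-0, for the 2 measured of 4 blood cell markers 28.9 to 36.9 units in CL1-5 and 32.4 to 35.8 units in CL1-0, and for the 3 endothelial markers 140 to 154 units in CL1-5 and 67.7 to 85.5 units in CL1-0. The blood cell marker PTPRC, the endothelial marker CDH5 and the fibroblast marker LUM were above the percentile on no array. The fibroblast marker DCN was above it on no array for the probe set summed here. A DCN probe set with the suffix x gave 25.0 to 37.4 units, above the percentile on all arrays. The blood cell marker CD3E (20.5 to 28.6 units) and the fibroblast marker COL1A1 (24.0 to 42.1 units) were above it on all arrays. The endothelial marker VWF was above it on 2 arrays of each line. Lying above this percentile is thus a weak sign that a marker is expressed, also for the epithelial markers. PECAM1 made up the endothelial difference, with 115 ± 4.24 units in CL1-5 and 49.8 ± 6.13 units in CL1-0, and its part in the results below was not tested.

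Of the 9 integrin genes, each tested through 1 probe set, 6 were higher in CL1-5, 2 were lower and 1 did not pass, at an adjusted p under 0.05 (limma, Benjamini-Hochberg over all genes). Over all 14828 genes tested, 51.6% were called, 23.3% as higher and 28.3% as lower, so that the 8 calls among the 9 stand against a common background. At least 2-fold increases were found for 4 of the 9, against 8.51% of all genes, and at least 2-fold decreases for 0 of the 9, against 7.6%. The median log2 fold change, CL1-5 over CL1-0, was 0.47 over the 9 genes and -0.03 over all genes tested. For 8 of the 9 the arrays of the lines did not overlap, against 58.8% of all genes. ITGA1 is among the 6, the 4 and the 8. It passed the filter only through CL1-5, so that some of its difference was given by the filter. Fold changes are on the log2(signal + 6.85) scale, so that changes of dim genes come out too small. In RNA of a whole culture, fewer cells with a transcript and less of it per cell cannot be told apart. ITGA3, ITGA2, ITGA6 and ITGA1 had the larger changes, all upward, while ITGB1, the partner they share, was lower.

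**Figure D1:**
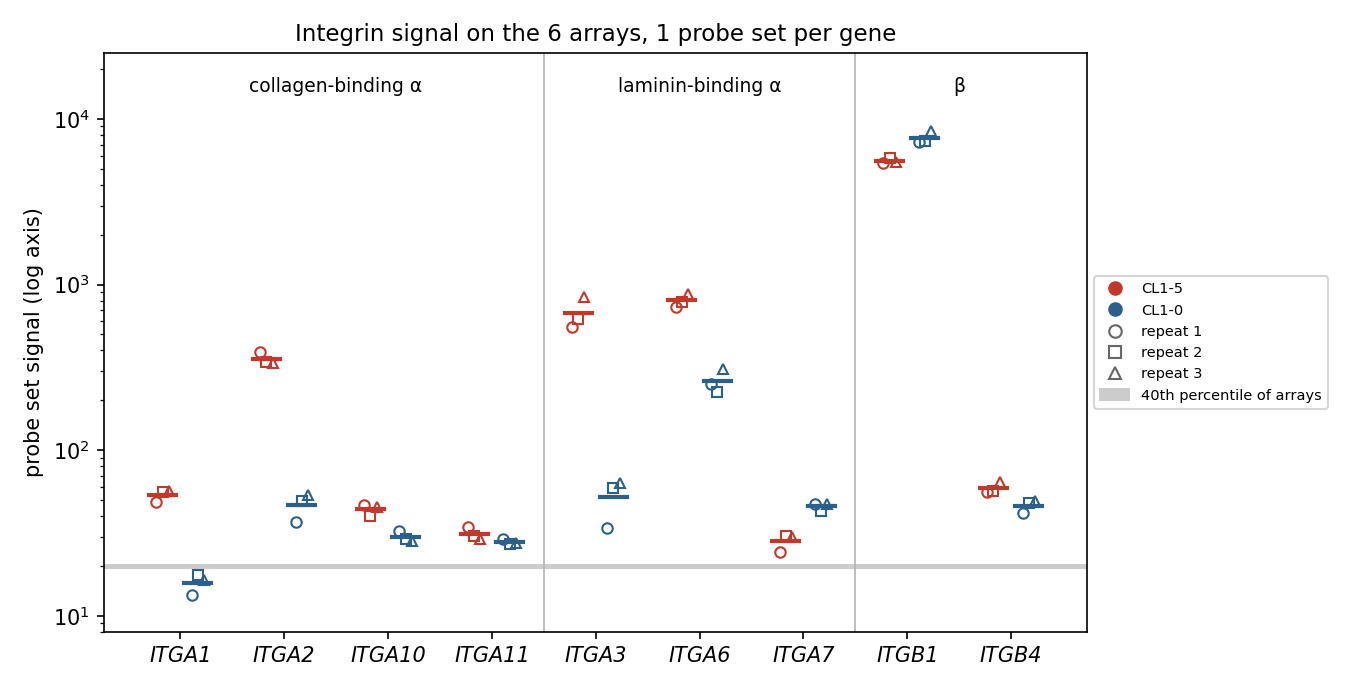
Signal of the 9 integrin genes on each array, 1 probe set per gene, on a log axis. CL1-5 (red) stands left of CL1-0 (blue), marker shapes give the repeat, bars are means of 3 arrays and the grey band is the range of the arrays' 40th percentiles. For ITGA2, ITGA3 and ITGA6 the CL1-5 points lie well above those of CL1-0, and for ITGB1 and ITGA7 they lie below.

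The start regions of 4 members that differed between the lines are shown to set a pair of neighbouring genes that rose (ITGA1 and ITGA2) beside another that rose (ITGA6) and a member that fell (ITGB1). Sequences are RefSeq windows on build GRCh38.p14, from 250 bases before to 50 after an annotated start, written 5′ to 3′ on the gene's strand, and capitals mark the GC box GGGCGG on either strand. For ITGA6 and ITGB1, which have a pair of annotated starts each, the window richer in G and C is shown.
ITGA1, chr5:52787666-52787965, plus strand: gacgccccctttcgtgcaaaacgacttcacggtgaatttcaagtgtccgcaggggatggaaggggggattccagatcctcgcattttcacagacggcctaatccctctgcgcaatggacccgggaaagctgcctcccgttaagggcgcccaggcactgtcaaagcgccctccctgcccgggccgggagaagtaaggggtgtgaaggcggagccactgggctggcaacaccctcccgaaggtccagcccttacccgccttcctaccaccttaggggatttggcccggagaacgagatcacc
ITGA2, chr5:52989102-52989401, plus strand: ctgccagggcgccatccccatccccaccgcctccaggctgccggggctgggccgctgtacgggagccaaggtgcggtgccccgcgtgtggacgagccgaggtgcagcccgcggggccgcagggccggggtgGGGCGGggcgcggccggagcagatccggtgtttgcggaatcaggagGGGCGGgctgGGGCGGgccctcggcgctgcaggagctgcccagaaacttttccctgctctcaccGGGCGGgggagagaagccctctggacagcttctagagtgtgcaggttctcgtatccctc
ITGA6, chr2:172427336-172427635, plus strand: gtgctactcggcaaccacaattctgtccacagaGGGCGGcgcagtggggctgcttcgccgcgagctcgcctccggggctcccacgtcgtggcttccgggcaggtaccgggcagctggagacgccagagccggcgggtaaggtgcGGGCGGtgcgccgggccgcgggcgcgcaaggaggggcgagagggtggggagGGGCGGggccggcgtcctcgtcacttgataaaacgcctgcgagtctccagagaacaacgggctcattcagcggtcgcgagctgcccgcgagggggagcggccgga
ITGB1, chr10:32958181-32958480, minus strand: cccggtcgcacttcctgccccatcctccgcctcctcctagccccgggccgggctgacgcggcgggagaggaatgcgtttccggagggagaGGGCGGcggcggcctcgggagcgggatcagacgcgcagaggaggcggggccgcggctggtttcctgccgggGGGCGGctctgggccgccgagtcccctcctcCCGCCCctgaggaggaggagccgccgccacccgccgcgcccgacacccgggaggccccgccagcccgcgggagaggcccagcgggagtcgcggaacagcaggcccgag
The table held 8 windows for 6 of the 9 genes. GC boxes number 4 in the ITGA2 window, 3 in that of ITGA6 and 3 in that of ITGB1, and none is in that of ITGA1. Over all windows of the members, 4 of 8 hold at least 1, against 45% of the 35116 windows of the table. The ITGA6 windows overlap and share a GC box, which is counted in each. G and C make up 61.7% of the ITGA1 window, 72.7% of that of ITGA2, 72.0% of that of ITGA6 and 78.3% of that of ITGB1, against a median of 58.7%. The AP-1 motif TGANTCA was in 0 of the 8 windows (7.71% of all), the TATA box TATAAA in 2 (11.5%) and the E-box CACCTG in 2 (20.6%), each searched on both strands and none of these motifs contains another. Such matches describe the letters only. Of the windows shown, those of ITGA2 and ITGA6, which rose, and of ITGB1, which fell, hold several GC boxes. Showing the richer window raised the values of ITGA6 and ITGB1. Their other windows have 53.0% G and C with 1 GC box, the shared one (ITGA6), and 40.7% with 0 (ITGB1). The window of ITGA10, which also rose, has 48.7% and 0.

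Among the collagen-binding subunits, ITGA2, the collagen receptor of platelets and epithelia, differed most. The probe set that stands for the gene gave 391, 339 and 337 units in CL1-5, against 36.8, 49.1 and 53.9 units in CL1-0. All CL1-5 arrays thus lay far above all CL1-0 arrays, and the log2 fold change was 2.77 (SE 0.14, adjusted p = 4.5e-07). It was 2.91 within repeats 1 and 2 and 2.50 within repeat 3.

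A second ITGA2 probe set, 227314_at, gave 1171, 1102 and 1092 units in CL1-5, against 8.22, 8.20 and 9.91 units in CL1-0. There CL1-0 lay under the 40th percentile on every array, so that the difference is a bound: at least 42.1-fold higher in CL1-5 (adjusted p = 1.6e-08 over all probe sets). This probe set passed the filter only through CL1-5, so that some difference was given by the filter. The probe sets share the direction but not the size, and the first, 205032_at, was above the percentile on all 3 CL1-0 arrays. A gene's value here comes from its probe set of highest mean log2 signal. With the highest mean on the linear scale, an alternative added after the data were seen, 227314_at would stand for ITGA2, with a fitted log2 fold change of 6.18, and the mean of both gave 4.47.

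ITGA1, the receptor best known for binding basement membrane collagen, was dim. The probe set that stands for it gave 48.5, 56.3 and 56.9 units in CL1-5, against 13.3, 17.6 and 16.5 units in CL1-0. All 3 CL1-0 arrays lay under the 40th percentile, and the gene passed the filter on low signal only through CL1-5. It was at least 2.26-fold higher in CL1-5 (adjusted p = 6.9e-06). Of the other ITGA1 probe sets, 214660_at gave 16.5, 20.7 and 23.4 units in CL1-5 and 6.34, 6.55 and 7.38 units in CL1-0, which also do not overlap, but failed the filter and was not tested. The third, 1560359_at, stayed between 5.53 and 8.62 units on all arrays, with the lines overlapping.

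ITGA10, a collagen receptor known mainly from cartilage, was dim in both lines. It gave 46.8, 40.2 and 45.6 units in CL1-5, against 32.4, 29.2 and 28.5 units in CL1-0. The lines did not overlap, and the log2 fold change was 0.47 (SE 0.10, adjusted p = 0.0032). ITGA11, a receptor for fibrillar collagen known from fibroblasts, gave 34.5, 30.2 and 29.0 units in CL1-5, against 29.0, 27.3 and 27.7 units in CL1-0. The lowest CL1-5 array lay just under the highest CL1-0 array, and the log2 fold change of 0.12 did not pass (95% interval -0.09 to 0.34, adjusted p = 0.30). The other tested ITGA11 probe set, 222899_at, averaged 22.7 ± 1.03 units in CL1-5 and 19.9 ± 4.29 units in CL1-0 and did not pass either (adjusted p = 0.34 over all probe sets). The last one, 233335_at, was under 8.5 units on every array.

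Among the laminin-binding subunits, ITGA3, a receptor for the laminins of epithelial basement membranes, had the largest change of the 9 genes as tested. Its 1 probe set gave 557, 621 and 841 units in CL1-5, against 33.7, 59.0 and 63.4 units in CL1-0. The lowest CL1-5 array was above the highest CL1-0 array by several times, and the log2 fold change was 3.55 (SE 0.23, adjusted p = 2.1e-06). Repeat 3 was the highest array in both lines, and the difference was 3.52 within repeats 1 and 2 and 3.59 within repeat 3.

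ITGA6, which joins either ITGB1 or ITGB4 to bind laminin, rose on both of its probe sets. Probe set 201656_at gave 736, 789 and 883 units in CL1-5, against 252, 225 and 308 units in CL1-0, a log2 fold change of 1.60 (SE 0.13, adjusted p = 8.9e-06). Probe set 215177_s_at gave 743, 645 and 487 units in CL1-5, against 243, 203 and 161 units in CL1-0, a log2 fold change of 1.59 (SE 0.19, adjusted p = 3.0e-04 over all probe sets). The fitted differences of the probe sets were nearly equal, and the lines overlapped on neither.

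ITGA7, the laminin receptor of muscle, was dim and lower in CL1-5. Probe set 216331_at gave 24.1, 30.4 and 30.0 units in CL1-5, against 47.6, 43.2 and 47.5 units in CL1-0, a log2 fold change of -0.60 (SE 0.105, adjusted p = 0.0012). Probe set 209663_s_at gave 16.7, 12.5 and 13.9 units in CL1-5, all under the 40th percentile, against 35.2, 23.7 and 22.9 units in CL1-0. It was at least 1.26-fold lower in CL1-5 (adjusted p = 0.0071 over all probe sets) and passed the filter only through CL1-0. Each probe set kept the lines apart, at signals close to the stand-in for background.

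The shared beta subunit ITGB1 fell on all 3 of its tested probe sets. Probe set 211945_s_at gave 5382, 5840 and 5463 units in CL1-5, against 7225, 7354 and 8423 units in CL1-0, a log2 fold change of -0.46 (SE 0.08, adjusted p = 8.2e-04). Probe set 1553678_a_at gave 2220, 2458 and 1965 units in CL1-5, against 4017, 3954 and 3665 units in CL1-0, with -0.81 (SE 0.09, adjusted p = 2.2e-04 over all probe sets). Probe set 1553530_a_at gave 2568, 2662 and 1776 units in CL1-5, against 4303, 4251 and 3598 units in CL1-0, with -0.81 (SE 0.16, adjusted p = 0.0037 over all probe sets). All CL1-5 arrays lay below all CL1-0 arrays on each of them. The mean over these probe sets gave a log2 fold change of -0.69. The other 4 ITGB1 probe sets stayed under 11 units on every array and were not tested. ITGB1 thus differed in the direction opposite to ITGA1, ITGA2, ITGA3 and ITGA6.

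ITGB4, the hemidesmosomal partner of ITGA6, was dim in both lines. Probe set 204990_s_at gave 55.7, 56.5 and 64.3 units in CL1-5, against 42.0, 47.7 and 49.3 units in CL1-0. The lines did not overlap, and the log2 fold change of 0.30 (SE 0.10) passed narrowly (adjusted p = 0.035). The call was lost without CL1-5 repeat 1, 2 or 3 (adjusted p = 0.0512, 0.0739 and 0.107), without CL1-0 repeat 1 or 2 (0.103 and 0.0684), with no filter (0.0554), with the mean over its passing probe sets (0.0977) and with repeats 1 and 2 alone (0.0760). The other tested ITGB4 probe sets did not pass: 204989_s_at averaged 28.9 ± 3.33 units in CL1-5 and 24.2 ± 5.52 units in CL1-0 (adjusted p = 0.26 over all probe sets), and 230704_s_at averaged 30.6 ± 4.62 units in CL1-5 and 28.1 ± 2.78 units in CL1-0 (0.54). Of the 2 untested ones, 214292_at ran the other way, with 10.4 to 12.2 units in CL1-5 and 14.4 to 16.0 units in CL1-0, under the 40th percentile on every array.

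**Figure D2:**
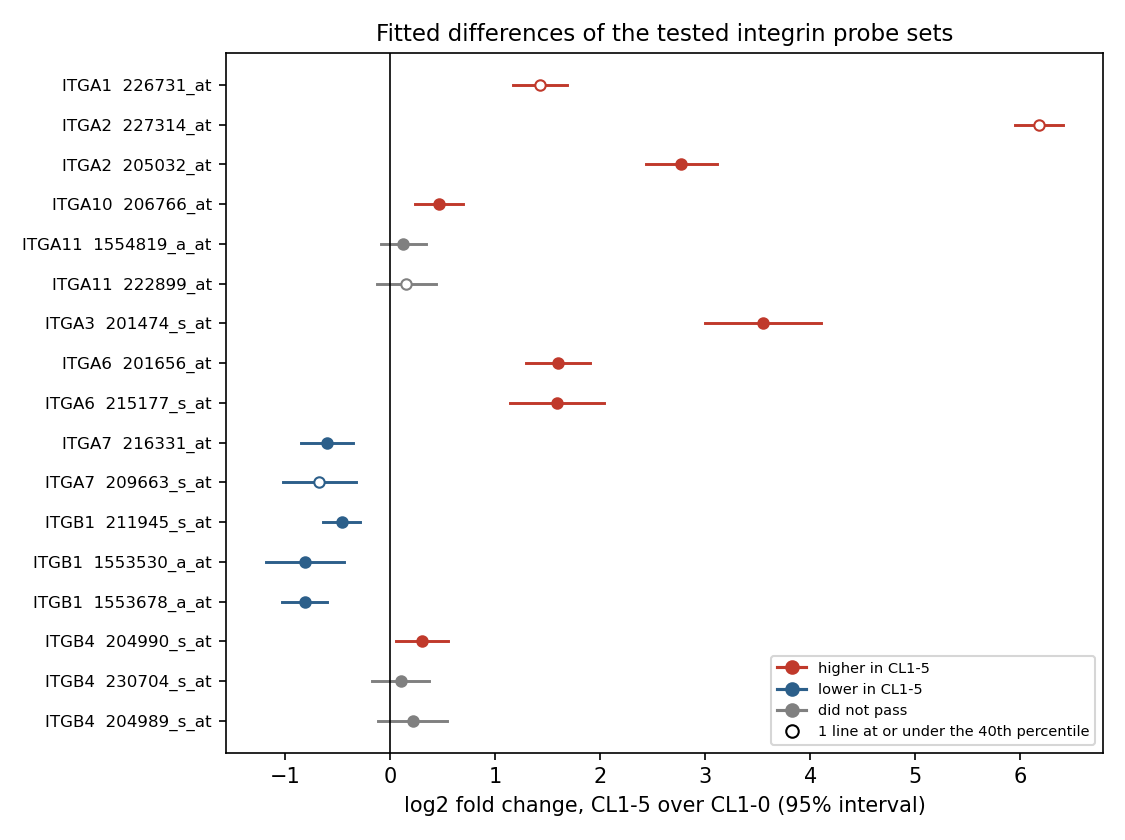
Fitted log2 fold changes, CL1-5 over CL1-0, of the 17 integrin probe sets that passed the filter, with 95% intervals from the fit over all probe sets (3 arrays per line). Red is higher in CL1-5, blue is lower, grey did not pass, and an open circle marks a probe set with 1 line at or under the 40th percentile, whose fitted value is no bound. ITGA2 probe sets lie at 2.77 and 6.18, and all 3 ITGB1 probe sets lie left of 0.

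In all, 17 of the 26 integrin probe sets passed the filter. Of these, 8 were higher in CL1-5, 5 were lower and 4 did not pass, in the fit over 28152 probe sets, of which 46.9% were called, 21.2% as higher and 25.6% as lower. At least 2-fold, 6 were higher, against 8.19% of all probe sets, and 0 lower, against 7.32%. The lines did not overlap on 13 of the 17, against 55.6% of all probe sets tested. Among these, 226731_at (ITGA1) and 227314_at (ITGA2) passed the filter only through CL1-5, and 209663_s_at (ITGA7) only through CL1-0. Some of their difference was thus given by the filter. No gene among these members had probe sets called in opposite directions. Each called gene with several tested probe sets had them all called, except ITGB4, with 1 of 3.

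Repeat 3 differed from repeats 1 and 2 in both lines, and for ITGA6 and ITGB1 in a way that depended on the probe set. On the log2 scale, ITGA6 probe set 201656_at was above the mean of repeats 1 and 2 by 0.21 in CL1-5 and 0.36 in CL1-0, whereas 215177_s_at was below it, at -0.50 in CL1-5 and -0.45 in CL1-0. For ITGB1, 1553530_a_at stood at -0.56 in CL1-5 and -0.25 in CL1-0, and 211945_s_at at -0.04 in CL1-5 and 0.21 in CL1-0. ITGA3 was above, by 0.51 in CL1-5 and 0.44 in CL1-0. The log2 3′ to 5′ ratio of the ACTB control, a sign of RNA quality, was 0.91 in repeat 3 of CL1-5, against 0.31 and 0.40 in its repeats 1 and 2. In CL1-0 it was 1.17 in repeat 3, against 0.53 and 0.44. Its part in these deviations was not tested. The differences between the lines within repeat 3 kept the sign of those within repeats 1 and 2 for all 9 genes. For ITGB1 they were -0.62 and -0.38.

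**Figure D3:**
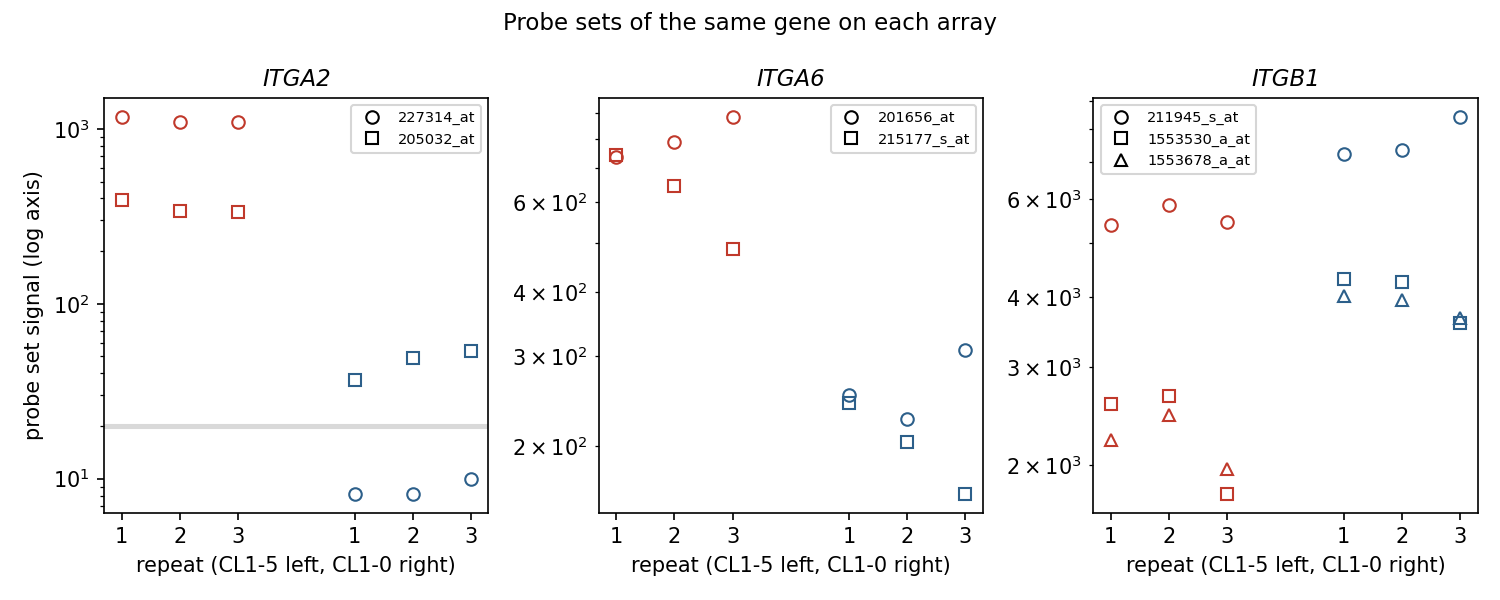
Signal of the tested probe sets of ITGA2, ITGA6 and ITGB1 on each array, on log axes that differ between panels. CL1-5 (red, repeats 1 to 3) stands left of CL1-0 (blue), marker shapes are probe sets and the grey band in the ITGA2 panel is the range of 40th percentiles. The ITGA2 probe sets part in CL1-0, at 8.20 to 9.91 and 36.8 to 53.9 units, and the ITGA6 probe sets part in repeat 3 of both lines.

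For ITGA3 and ITGA2, the 2 genes with the larger called changes, the genes with the most similar profile were found by Euclidean distance between centred log2 values over the 6 arrays. For ITGA3 these were NIBAN2 (distance 0.41, log2 fold change 3.51), the collagen-binding anthrax toxin receptor ANTXR1 (0.41, 3.39) and SLC46A3 (0.44, 3.45). With the mean over probe sets, the log2 fold change of ANTXR1 was 1.11 and that of NIBAN2 2.58, so their likeness to ITGA3 holds for the probe set that stands for each gene. For ITGA2 they were the phosphofructokinase regulator PFKFB4 (distance 0.32, log2 fold change 2.82), the cyclin CCND1 (0.33, 2.72) and the amino acid transporter SLC6A15 (0.33, 2.68). With the mean over probe sets, ITGA2 gave 4.47, PFKFB4 2.11, CCND1 2.81 and SLC6A15 2.42. Their likeness to ITGA2 thus also holds for the probe set that stands for each gene. With 2 lines, such likeness rests mostly on the size of the difference between them.

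The other integrin subunits did not share a direction. Of 13 tested, 4 were higher in CL1-5 and 2 lower, with a median log2 fold change of 0.04. In a fit with repeat number as a block, 4 were lower, where 34.7% of all genes were, and with array weights 5, where 38.6% were. ITGA4 was at least 3.90-fold higher, ITGB3, a subunit of vitronectin receptors, rose by 1.68 (SE 0.20, adjusted p = 1.3e-04), and ITGAV, its alpha partner, fell by 2.31 on the log2 scale (SE 0.08). ITGA2B, the platelet partner of ITGB3, fell by 1.15 on the log2 scale (SE 0.11). Through its probe set with the highest linear mean, ITGB3 gave 5.07, and with the mean over probe sets 2.98. ITGAV averaged 1288 ± 44.0 units in CL1-5 and 6444 ± 537 units in CL1-0.

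The lists of ligands and partner proteins were also chosen with earlier results of these data known. Over these lists together, 37 of 80 tested genes were higher in CL1-5 and 10 lower, with a median log2 fold change of 0.22. Over all genes, 23.3% were higher and 28.3% lower. The 10 became 19 with the repeat block or array weights and 16 with repeats 1 and 2 alone, and were 7 to 15 when 1 array was left out. Lower calls over all genes also became more frequent in these fits, at 34.7% with the block, 38.6% with array weights and 31.3% with repeats 1 and 2 alone, and higher calls made up 28% with the block, so that counts of lists under these settings are to be read against those shares. Of 8 tested laminin chains, the ligands, 3 were higher and 2 lower in CL1-5. LAMB3, the beta chain of the epithelial laminin that ITGA3 and ITGA6 bind, averaged 1826 ± 267 units in CL1-5 and 44.7 ± 4.07 units in CL1-0, a log2 fold change of 5.15 (SE 0.12, adjusted p = 4.6e-09). LAMB1 rose by 1.32 (SE 0.17), and LAMA1 was at least 1.44-fold lower. LAMC1, at 0.36 (SE 0.12, adjusted p = 0.033), lost its call without CL1-5 repeat 2 or 3 (0.0570 and 0.0971) or CL1-0 repeat 1 or 2 (0.109 and 0.123), and with quantile normalization (0.0539). The count of lower laminin chains was 1 without CL1-5 repeat 1 or 2 or CL1-0 repeat 2 or 3, and 4 without CL1-5 repeat 3, with the repeat block or with array weights. The list median was -0.13.

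Collagen chains changed in both directions, with 8 of 13 tested higher in CL1-5, 3 lower and a median of 0.88. COL6A1, a chain of the beaded filaments near basement membranes, averaged 4497 ± 1556 units in CL1-5 and 239 ± 18.6 units in CL1-0, a log2 fold change of 4.14 (SE 0.21). COL13A1, a transmembrane collagen, was at least 8.40-fold higher, a fitted log2 value of 3.67, but 0.45 where probe sets with the suffix x, which can cross-hybridise, could also stand for a gene, and 1.64 with the mean over probe sets. The fibrillar chains COL5A2 and COL11A1 were at least 26.4-fold and at least 12.8-fold lower. COL13A1 and COL6A3, both counted as higher, passed the filter only through CL1-5, as did ITGA4. COL5A2, COL11A1 and LAMA1 passed only through CL1-0. Some of their difference was thus given by the filter.

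Other receptors for these ligands were split. Of 4 tested, BCAM, a laminin receptor of the immunoglobulin superfamily, rose by 1.59 (SE 0.16), MRC2, an endocytic collagen receptor, fell by 0.88 on the log2 scale (SE 0.08; -0.58 with the mean over probe sets), and 2 did not pass. The collagen receptor kinase DDR2 was one of these (-0.02, adjusted p = 0.894), with 24.5, 23.8 and 33.5 units in CL1-5, against 29.3, 25.2 and 28.4 units in CL1-0, which overlap. DDR1 was not analysed here. Of 3 tested hemidesmosome partners, 1 was higher. PLEC, the plakin that links ITGB4 to keratins, rose by 1.50 (SE 0.20, adjusted p = 2.1e-04). CD151, the tetraspanin that binds laminin integrins, stood at 0.30 (SE 0.11, adjusted p = 0.056). It passed with the repeat block (adjusted p = 0.0117), without CL1-5 repeat 1 (0.0367), with the filter at the 60th percentile (0.0493), quantile normalization (0.0423), array weights (0.0264) or the mean over probe sets (0.0490), and 2 of the 3 were then higher. The block also made 1 of the 3 lower. Among 7 tetraspanins, CD9 (1.51, SE 0.17), CD82 (1.27, SE 0.13) and CD81 (0.38, SE 0.13, adjusted p = 0.035) were higher and 0 lower, and with the repeat block 5 were higher. The CD81 call was lost without CL1-5 repeat 2 or 3 (adjusted p = 0.121 and 0.101) or CL1-0 repeat 1 or 2 (0.114 and 0.0864), and with quantile normalization (0.0585).

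In the list of genes that regulate integrin activation, in either sense, or tie integrin tails to actin, 12 of 21 tested were higher and 0 lower. The median was 0.59. PARVA, the actin-binding partner of the integrin-linked kinase, was at least 5.22-fold higher on the probe set that stands for it, and the mean over its probe sets gave a log2 fold change of 1.57. That probe set was above the 40th percentile on 3 CL1-5 arrays and 1 CL1-0 array, so that some of its difference was given by the filter. The actin crosslinker ACTN4 (1.98, SE 0.15), the adaptor PXN (1.85, SE 0.13) and the linker VCL (1.53, SE 0.09) rose. TLN1, which binds beta tails directly, did not pass (-0.43, SE 0.34, adjusted p = 0.33), with 143, 179 and 376 units in CL1-5, against 243, 242 and 412 units in CL1-0. It passed as lower with the repeat block (adjusted p = 0.0024) and without CL1-5 repeat 3 (-0.83, adjusted p = 0.0147), with array weights (0.0276) and with repeats 1 and 2 alone (0.00143). Another TLN1 probe set, 236132_at, was called as lower (-0.46, adjusted p = 0.0066 by limma over all probe sets). It gave 54.9, 63.1 and 61.3 units in CL1-5, against 89.9, 83.2 and 81.3 units in CL1-0. A further TLN1 probe set, 232763_at, did not pass (-0.23, adjusted p = 0.10). Of the genes in this list, 2 were lower with the block or array weights and 1 without CL1-5 repeat 3.

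In adhesion signalling, 5 of 15 tested genes were higher and 2 lower, with a median of 0.13. CAV1, the caveolar scaffold, rose by 2.95 (SE 0.08), the focal adhesion kinase relative PTK2B by 0.85 (SE 0.16) and the GTPase CDC42 by 0.86 (SE 0.17), while the exchange factor ARHGEF7 fell by 0.84 on the log2 scale (SE 0.09). With the mean over its probe sets, ARHGEF7 gave -0.34 (adjusted p = 0.0197) and CDC42 gave -0.10. CDC42 probe sets 210232_at (-0.68, adjusted p = 0.0022 over all probe sets) and 214230_at (-0.93, 0.0028) were called as lower. CDC42 probe sets 208728_s_at and 226400_at did not pass. The kinase PTK2 did not pass through its representative probe set (-0.14, SE 0.07, adjusted p = 0.14), passed as lower with the repeat block (adjusted p = 0.047) and gave 1.15 with the mean over its probe sets. In integrin traffic, 4 of 10 were higher and 2 lower, with a median of 0.03. The clathrin adaptor DAB2 (2.52, SE 0.17) and the recycling GTPase ARF6 (1.83, SE 0.13, and 1.10 with the mean over probe sets) rose, RAB4A fell by 0.64 on the log2 scale (SE 0.09), and the lower value of RAB11FIP1 (-0.71, adjusted p = 0.036) did not pass without CL1-5 repeat 1 or 2 (0.115 and 0.114) or CL1-0 repeat 2 or 3 (0.0544 and 0.0950). With the repeat block 4 genes were lower in each of these lists, of 15 and of 10, where 34.7% of all genes were. Leaving out 1 array left 1 lower gene in the signalling list (any array except CL1-5 repeat 3) and 1 in the traffic list (CL1-5 repeat 1 or 2, or CL1-0 repeat 2).

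**Figure D4:**
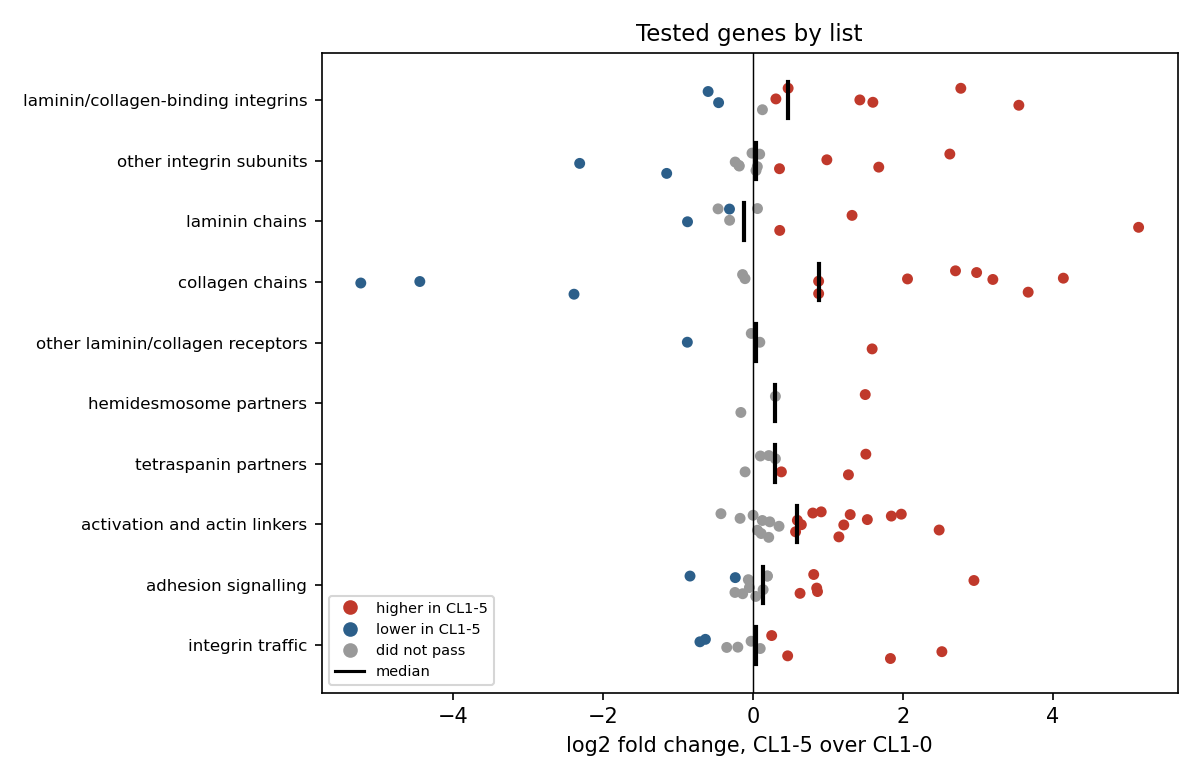
Log2 fold changes, CL1-5 over CL1-0, of the tested genes of each list, 1 point per gene (vertical scatter carries no value). Red is higher in CL1-5, blue is lower, grey did not pass and the black bar is the list's median. Points of genes with a dim line are fitted values and no bounds. The 21 activation and actin linkers hold 12 red points and no blue one.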

How the data were processed

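Cells of CL1-5 and CL1-0 gave 3 biological repeats each, hybridised as biotin-labelled cRNA to 6 one-colour arrays. The deposited table holds linear probe set intensity values, made with MAS5 per the submitters' processing notes. For its version, scaling and later steps, the answer is "not given in the sources used here". Gene symbols came from the platform annotation, updated by gene identifier from RefSeq (GRCh38.p14). The table's 54675 probe sets comprise 41091 with a single symbol, 1801 with more, 11721 without and 62 controls.

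The scale was log2(signal + 6.85), with the 10th percentile over the whole table as the constant, so changes of dim genes are understated. Filtering required a signal above the array's 40th percentile on at least 3 of 6 arrays. The probe set of highest mean log2 signal stood for a gene, and one with suffix x only where no other passed. CL1-5 minus CL1-0 was tested with limma 3.58.1 in R 4.3.3 (lmFit, then eBayes with trend) and Benjamini-Hochberg adjustment over 14828 genes or 28152 probe sets. A line whose arrays or mean lay at or under the percentile gives a bound, set against the higher of percentile and measured value.

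Named are the members, up to 4 called genes of larger change in each list, some fixed names and the nearest profiles. Members and lists were chosen with earlier results of these data known. Of 100 partner genes, 9 were not analysed here. Pairing by repeat number was checked over genes: deviations from each line's mean had correlations of 0.475 (repeat 1), 0.280 (repeat 2) and 0.649 (repeat 3), so same-numbered arrays were treated as pairs in the block, which the labels do not state. No block is in the fit reported. Alternatives covered the constant, filter, scaling, variance trend, array weights, choice of probe set, repeat block, arrays left out and thresholds.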

Additional observations from a re-analysis of the deposited data

How the results depend on the processing

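Across 21 alternatives, the calls of ITGA1, ITGA2, ITGA3, ITGA6, ITGA7, ITGA10 and ITGB1 kept their direction and their side of the threshold wherever the gene was tested, except that ITGA7, ITGA10 and ITGB1 are under 2-fold. Leaving out 1 array gave 5 to 6 higher and 2 to 2 lower integrin genes, 7 to 7 higher and 5 to 5 lower integrin probe sets, 3 to 4 higher and 2 to 3 lower other subunits, and 32 to 39 higher and 7 to 15 lower partner genes. With the filter at the 60th percentile, 4 integrin genes were higher and 1 lower, and ITGA1, ITGA7, ITGA10 and ITGA11 were no longer tested. With at least 2-fold change required, 4 were higher and 0 lower. Of the integrin probe sets, 6 were higher under each of these settings, and 3 and 0 were lower. Of the other subunits, 2 were higher with 2-fold required, and 5 were lower with array weights. Partner genes numbered 37 higher and 10 lower. With 2-fold required they were 22 and 3, and the lower ones were 19 with array weights and 16 with repeats 1 and 2 alone. With the repeat number as a block (replicate block), 4 other subunits and 19 partner genes were lower. Over all genes, lower calls were 28.3% in the reported fit, 34.7% with the block, 38.6% with array weights and 31.3% with repeats 1 and 2 alone. Among single named genes the block changed the calls of CD151, TLN1 and PTK2 and no other call. A constant of 32 in place of 6.85 brought ITGA1 to 0.85, ITGA7 to -0.38 and ITGA10 to 0.30. Values that changed sign were those of CDC42 (-0.10) and PTK2 (1.15) with the mean over probe sets, where the sets disagree, of DDR2 without CL1-5 repeat 1 (0.032) or 2 (0.046) or CL1-0 repeat 1 (0.011), in a range of -0.15 to 0.046 when 1 array is left out, and of ITGB4 probe sets 204989_s_at (-0.070) and 230704_s_at (-0.058) with array weights, and 230704_s_at without CL1-5 repeat 1 (-5e-04, range -5e-04 to 0.16). For DDR2 and the ITGB4 probe sets the cause was not tested. No detection call was used, so signals near 20 units cannot be told from background here.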

Other observations

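ITGA1 and ITGA2 are neighbours on chromosome 5 in the RefSeq annotation, with PELO, a ribosome rescue factor, between their starts. Both integrins were higher in CL1-5, whereas PELO averaged 228 ± 13.6 units in CL1-5 and 324 ± 16.7 units in CL1-0 and fell by 0.49 on the log2 scale (SE 0.09, adjusted p = 0.0017 by limma). The next protein-coding genes on one side also fell, MOCS2 by 0.44 (SE 0.10), FST by 0.50 (SE 0.10) and NDUFS4 by 0.52 (SE 0.16) on the log2 scale. On the other side ISL1 fell by 0.77 on the log2 scale (SE 0.11) and PARP8 rose by 1.93 (SE 0.13). The region was looked at after the values of ITGA1 and ITGA2 were seen.

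Probe sets of the focal adhesion kinase gene PTK2 disagreed. Probe set 241453_at gave 711, 799 and 770 units in CL1-5, against 51.1, 50.1 and 49.8 units in CL1-0, a 13.4-fold difference (adjusted p = 6.8e-08 by limma over all probe sets). Probe sets 208820_at (796 ± 17.5 units in CL1-5 and 877 ± 23.3 units in CL1-0) and 207821_s_at (390 ± 68.4 units in CL1-5 and 433 ± 58.9 units in CL1-0) did not pass (adjusted p = 0.16 and 0.47).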
